A study of Elaeis guineensis with 38 samples.

Results

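The regions described here are short stretches of the oil palm genome that carried H3K4me3 in most normal palms and H3K27me3 in no more than 1 of them. The peaks of all 19 deposited lists were merged wherever they shared at least 1 bp, which gave 5888 regions. A region was kept when no fewer than 3 of the 5 H3K4me3 lists and no more than 1 of the 5 H3K27me3 lists of the normal palms held a peak in it, and when its merged width stayed under 1000 bp. This left 366 narrow regions, 6.22% of all, on 346 scaffold pieces of 252 scaffolds. The calls of the normal palms and the width chose these regions, so their values in the normal lists are a description and support nothing.

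Chromatin immunoprecipitation with sequencing (ChIP-seq) was done on frond 0 leaf of 10 clonal palms of Elaeis guineensis, all from the same ortet or mother palm. The mantled palms, whose fruit is malformed, were 673, 687, 754, 765 and 770, and the normal palms were 753, 758, 764, 767 and 768. Each palm gave 1 list for H3K4me3 and 1 for H3K27me3, except that no H3K4me3 sample of mantled palm 673 is described, which made 4 and 5 mantled lists and 5 and 5 normal lists. Each list was called by the authors from 1 library made with an Abcam monoclonal antibody, against that library's own input. The labels give neither treatment nor age. The palms share 1 genotype by origin, were grouped by fruit, and were sampled as whole leaf, in which fewer cells with a mark and less of the mark per cell cannot be told apart. No gene could be tied to the scaffold pieces here, so the tissue was not checked against marker genes and no gene is named.

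H3K4me3 is trimethylation of lysine on histone H3 that Trithorax-group enzymes place around the starts of transcribed genes. H3K27me3 is the product of Polycomb repressive complexes and covers genes that are held silent, which in plants include many regulators of flower development. In leaf, floral homeotic genes are typical carriers of H3K27me3, and genes of photosynthesis and housekeeping are typical carriers of H3K4me3. Mantling is a homeotic change of palms from tissue culture in which male floral organs turn towards carpels.

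Several lists stood apart from the others. ChIP libraries held between 229258 and 7883375 fragments for H3K4me3 and between 253624 and 10374962 for H3K27me3. Among mantled palms the H3K4me3 list of palm 765 came from 3670206 fragments, whereas those of palms 687, 754 and 770 came from 229258, 534988 and 783650. In palm 754 the lists went against their labels at the narrow regions, with a peak at 6 in the H3K4me3 list and at 66 in the H3K27me3 list. Whether these 2 lists were exchanged cannot be settled from the peaks, and an exchange would alter every value of palm 754 and the mantled means that hold it. In palm 770 the numbers were 19 for H3K4me3 and 24 for H3K27me3, and in normal palm 767 they were 102 and 185, so this order was not particular to palm 754. The H3K27me3 libraries of palms 754, 767 and 770 held 1541992, 1998875 and 963067 fragments, each more than the H3K4me3 library of the same palm. Palms 687 and 764 also had the larger H3K27me3 library, with 253624 against 229258 and 2056297 against 1683525 fragments. There the order of the calls was the opposite, with H3K4me3 at 9 and 36 narrow regions and H3K27me3 at 7 and 8. Among normal palms the H3K4me3 lists of palms 764 and 767 covered few narrow regions, from 1683525 and 302016 fragments, whereas that of palm 768 covered 92.9% from 1331454 fragments. The part of depth in the differences between lists was not tested.

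The narrow regions were 229 to 999 bp wide, with a median of 582.5 bp and quartiles at 449.5 and 781 bp, whereas the median over all 5888 regions was 473 bp. The regions that met the same rule but were 1000 bp or wider numbered 312, and a further 290 regions had a peak in at least 3 normal lists of each mark. These sets are called the wide regions and the regions with both marks. A narrow region was the only region on its piece in 162 cases (44.3%), against 29.5% of wide regions and 43.4% of all regions. Another region lay within 1 kb of 54 narrow regions (14.8%), against 21.8% of wide regions and 20.3% of all regions. For 41 of the 54 this neighbour belonged to none of the sets, for 9 it was a wide region, for 2 it carried both marks and for 2 it was narrow. At the ends of pieces, 53 narrow regions (14.5%) began in the first 300 bp of their piece, against 17.9% of wide and 12.1% of all regions.

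Narrow regions were thinly spread. Of the 346 pieces 326 held 1 narrow region and 20 held 2. The 3 of these 20 that come first by name were p5.00_sc00022_p0103, with regions at 292 to 937 and 1990 to 2819, p5.00_sc00027_p0103, with regions at 3235 to 3999 and 6167 to 6549, and p5.00_sc00040_p0029, with regions at 1343 to 1900 and 5912 to 6448. Scaffolds sc00001 and sc00002 held 8 narrow regions each and sc00027 held 5.

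Membership rested mainly on the same 3 normal palms. Of the 366 regions 273 (74.6%) had a peak in 3 normal H3K4me3 lists, 81 (22.1%) in 4 and 12 (3.28%) in all 5. Palms 753, 758 and 768 together marked 333 (91.0%), and 243 of the 273 regions in 3 lists were marked in exactly these palms. With 3 of the remaining 4 lists required, the number of narrow regions was 103 without palm 753, 97 without palm 758 and 196 without palm 768. H3K27me3 was found in 0 normal lists at 150 regions (41.0%) and in 1 at 216 (59.0%), so the larger share of the set is not free of H3K27me3 calls even in normal palms. All 12 regions in 5 normal H3K4me3 lists, 63 of the 81 in 4 and 141 of the 273 in 3 had that 1 H3K27me3 list.

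The first question was how the narrow regions fared in the H3K4me3 lists, those of mantled palms being the ones the rule did not use for presence. In mantled palms a peak was found at 2.46% of narrow regions in palm 687, 1.64% in palm 754, 94.3% in palm 765 and 5.19% in palm 770. Over all 5888 regions the same lists held a peak at 4.82, 18.1, 59.6 and 9.15%. The list of palm 765 thus covered nearly all narrow regions, with a 95% Wilson interval of 91.4 to 96.2%, and the other 3 mantled lists covered a smaller share of them than of all regions. In normal palms the shares were 98.6% in palm 753, 99.5% in palm 758, 9.84% in palm 764, 27.9% in palm 767 and 92.9% in palm 768, against 32.4, 52.9, 7.74, 11.6 and 23.5% of all regions. The mean share was 25.9% ± 45.6 in mantled palms and 65.7% ± 43.3 in normal palms (SD, n = 4 and 5), and the ranges overlapped. No test is given, since the normal lists made the set.

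**Figure D1:**
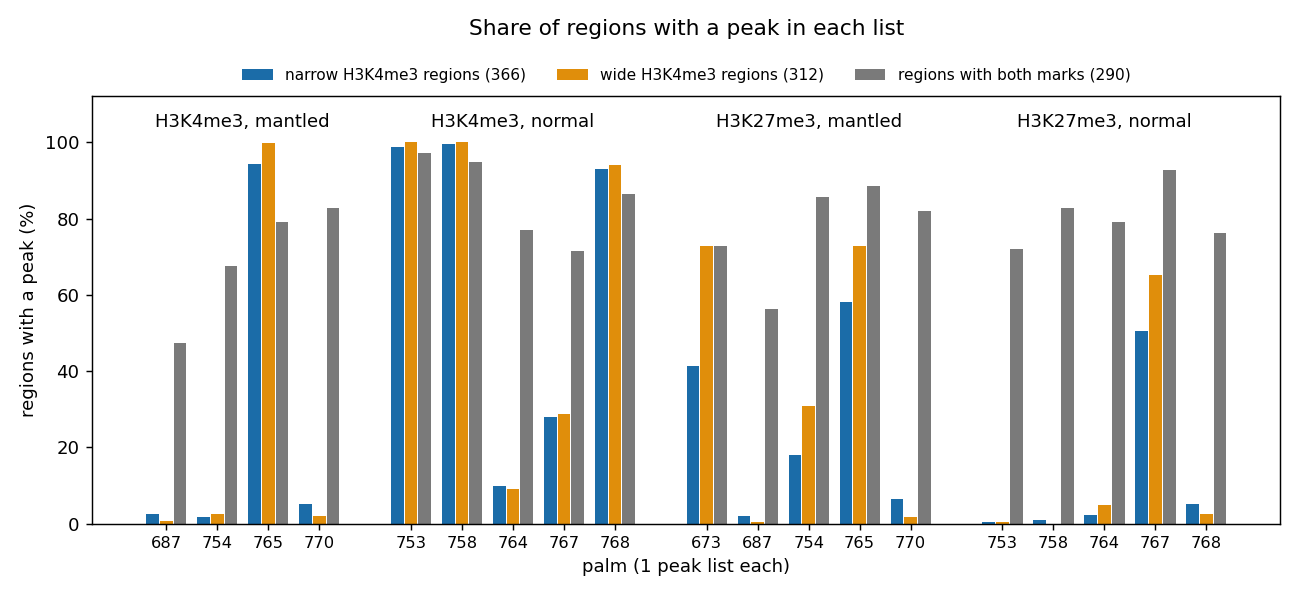
Percentage of regions with a peak in each of the 19 lists, for the 366 narrow regions (blue), the 312 wide regions (orange) and the 290 regions with both marks (grey). The H3K4me3 list of mantled palm 765 marked 94.3% of narrow regions, whereas those of palms 687, 754 and 770 marked 1.64 to 5.19%.

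Counted by region, 10 narrow regions had an H3K4me3 peak in 0 mantled lists, 335 (91.5%) in 1, 19 (5.19%) in 2, 2 in 3 and 0 in all 4. Over all 5888 regions, 24.6% had a peak in 0 and 64.2% in 1. Palm 765 was the only mantled list with a peak at 327 narrow regions (89.3%), against 51.9% of all regions and 94.9% of wide regions. At least 2 mantled lists marked 21 narrow regions (5.74%), against 11.1% of all regions.

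The second question was how far these regions carried H3K27me3 in mantled palms. A peak was found at 41.3% of narrow regions in palm 673, 1.91% in palm 687, 18.0% in palm 754, 58.2% in palm 765 and 6.56% in palm 770. The same lists held a peak at 26.1, 7.9, 12.6, 22.4 and 15.2% of all 5888 regions. Palms 673, 754 and 765 thus covered a larger share of narrow regions than of all regions, and palms 687 and 770 a smaller one. In normal palms, whose lists the rule limits, the shares were 0.273% in palm 753, 0.82% in palm 758, 2.19% in palm 764, 50.5% in palm 767 and 5.19% in palm 768, against 12.3, 11.7, 20.4, 23.7 and 12.1% of all regions. Of the 216 narrow regions with a normal H3K27me3 list, 185 had it from palm 767. Mantled palms averaged 25.2% ± 23.9 and normal palms 11.8% ± 21.7 (SD, n = 5 each), with overlapping ranges.

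At least 1 mantled H3K27me3 list had a peak at 275 narrow regions (75.1%) and at least 2 at 134 (36.6%), against 44.7 and 21.6% of all 5888 regions and 91.0 and 61.5% of wide regions. By number of mantled lists, 91 regions had a peak in 0, 141 in 1, 89 in 2, 38 in 3, 7 in 4 and 0 in 5. No H3K27me3 peak in any of the 10 lists of both phenotypes was found at 72 narrow regions (19.7%), against 41.3% of all regions and 4.81% of wide regions. The name "largely without H3K27me3" is set by the rule for the normal lists, and it does not describe the mantled lists of palms 673 and 765. These came from 10374962 and 1865140 fragments, and the list of normal palm 767, with a share of 50.5%, from 1998875. The lists of normal palms 753, 758 and 768 came from 336380, 903822 and 356982. That of normal palm 764 had a share of 2.19% from 2056297. The part of depth was not tested.

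Narrow regions that had 1 normal H3K27me3 list had H3K27me3 peaks in mantled palms more often than those with none. The share in palm 765 was 75.5% of the 216 regions with 1 normal list and 33.3% of the 150 with none. It was 50.9 and 27.3% in palm 673, 28.7 and 2.67% in palm 754, 10.2 and 1.33% in palm 770, and 3.24 and 0% in palm 687, each time with the regions of 1 normal list first. The count of 0 among 150 regions allows a share of up to 2%. The same direction was seen in all 5 mantled H3K27me3 lists. H3K4me3 in palm 765 went the other way, with a peak at 92.1% of the regions with 1 normal H3K27me3 list and 97.3% of those with none. The other mantled H3K4me3 lists had the direction of H3K27me3. Their shares were 3.70 and 0.667% in palm 687, 2.31 and 0.667% in palm 754, and 7.87 and 1.33% in palm 770, in the same order. The direction is thus not particular to H3K27me3. These shares are over regions of the same lists and have no test.

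**Figure D2:**
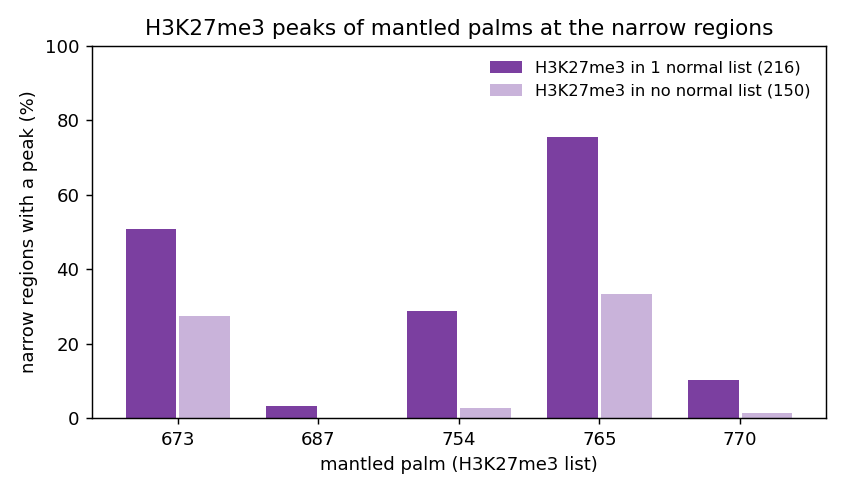
Percentage of narrow regions with an H3K27me3 peak in each of the 5 mantled palms, for the 216 regions with H3K27me3 in 1 normal list (dark) and the 150 regions with it in no normal list (light). The dark bar is the higher in each palm, from 75.5 against 33.3% in palm 765 to 3.24 against 0% in palm 687.

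Within mantled palms the marks were set against each other over the narrow regions. H3K4me3 lists had a peak at 25.9% ± 45.6 and H3K27me3 lists at 25.2% ± 23.9 (SD, n = 4 and 5), a difference of 0.70 percentage points that is far smaller than either spread. Its sign was not settled: it was -13.8 percentage points without palm 765 and 6.99 without palm 754, and it was also negative without each of normal palms 753, 758, 767 and 768, at -6.70, -8.81, -2.84 and -10.1. Region by region, a two-sided Fisher's exact test with Benjamini-Hochberg adjustment over all 5888 regions called 0 narrow regions, and 0 passed at an unadjusted p under 0.05. Over all regions the adjusted test called 0%, and 0.051% had an unadjusted p under 0.05, all 3 of these regions leaning towards H3K27me3. With 4 and 5 lists the smallest p of this test is 0.00794, for a region marked in all lists of one mark and in none of the other, and 935 such regions would be needed before any could pass the adjustment. The 366 narrow regions alone could not reach that number, so the adjusted count of 0 is limited by the design. The unadjusted count of 0 is an outcome of the lists, as the smallest Fisher p of a narrow region was 0.167. The test treats lists of the same palm as separate.

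The strength of the peaks at narrow regions was also compared between the marks. The caller's fold enrichment is the fragment pileup over the local background, each with 1 added, and is the authors' own value for each peak. At narrow regions the median −log10 q of the authors' H3K27me3 peaks lay between 4.57 and 6.73 in mantled lists and between 4.37 and 5.18 in normal lists. The median −log10 q of their H3K4me3 peaks was 10.4 in palm 687, 10.7 in palm 754, 48.5 in palm 765 and 5.52 in palm 770, and 12.9, 23.8, 6.41, 4.24 and 7.87 in normal palms 753, 758, 764, 767 and 768. The ranges of the marks overlap, and in palm 767 the H3K4me3 median lay below the H3K27me3 median of 4.88. The marks were called in different modes, which bears on this comparison.

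Levels were compared at the 321 narrow regions that had an H3K4me3 peak in palms 765, 753, 758 and 768. The fold enrichment had a median of 7.78 in mantled palm 765, against 2.89, 2.21 and 3.50 in normal palms 753, 758 and 768. It was highest in palm 765 at 289 regions (90.0%). The ChIP coverage at the summit, as a multiple of the library's average at the caller's genome size, had medians of 23.8 in palm 765 and of 23.1, 30.6 and 27.7 in the normal palms. Palm 765 had the lowest coverage of the 4 at 113 regions and the highest at 17. The local background, in the same unit and derived from the pileup and the fold enrichment, had a median of 2.30 in palm 765, against 7.43, 12.7 and 6.79 in palms 753, 758 and 768. It was lowest in palm 765 at 309 regions (96.3%). The higher enrichment of palm 765 thus did not come with a higher coverage. The background is computed from pileup and enrichment, so its lower level there restates the enrichment at like coverage and is no separate observation. Its lower quartile in palm 765 was 1.22, near the smallest background of any peak in the 19 lists, 0.976. The list of palm 765 had the same order at wide regions, with a median enrichment of 8.54 against 2.18 to 3.58 and a background of 2.83 against 6.74 to 12.0 in the normal palms. At regions with both marks the enrichment was 3.77 against 1.84 to 2.50 and the background 48.2 against 83.4 to 88.3. Peaks were also widest in palm 765, with a median of 567 bp against 382, 398 and 330 bp, and widest there at 289 regions (90.0%). These are 4 libraries, 1 of them mantled, and no test of phenotype can be made from them.

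**Figure D3:**
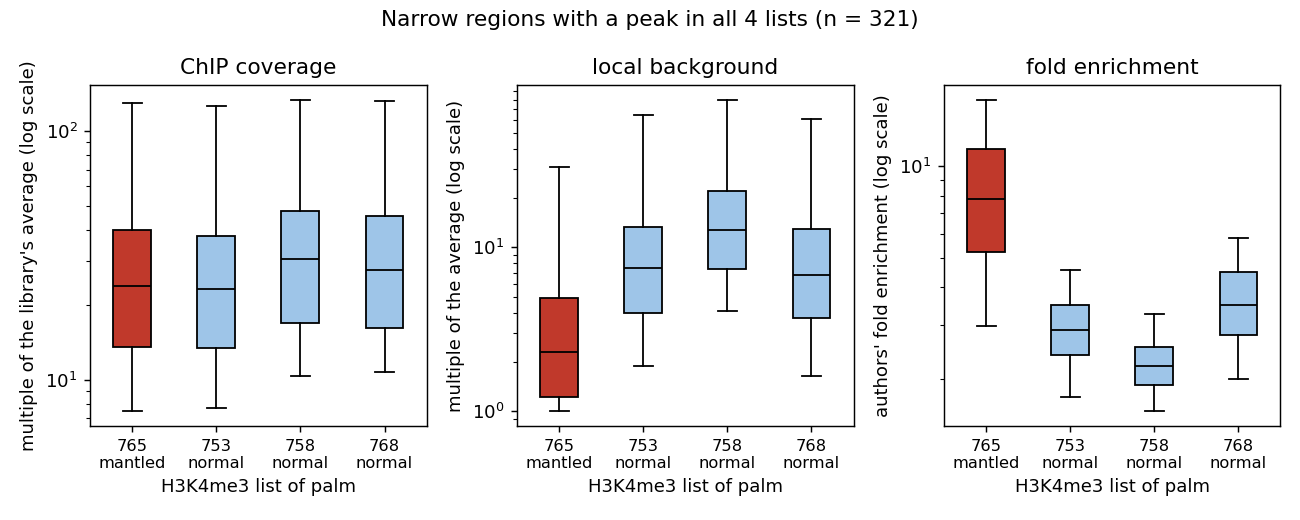
ChIP coverage, local background and the authors' fold enrichment at the 321 narrow regions with an H3K4me3 peak in mantled palm 765 and normal palms 753, 758 and 768, on log axes. Boxes span the quartiles with the median as a line, and whiskers run from the 5th to the 95th percentile over regions. Coverage has like medians of 23.1 to 30.6, whereas background has a median of 2.30 in palm 765 and of 6.79 to 12.7 in the normal palms.

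The same regions kept their order from list to list in some measures and not in others. Across the 321 regions, Spearman's correlation between pairs of the 4 lists lay between 0.941 and 0.977 for coverage and between 0.827 and 0.974 for local background, whereas for fold enrichment it was 0.136 to 0.342 in the 3 pairs with palm 765 and 0.622 to 0.683 in the 3 pairs of normal palms. The points of each correlation are sites of the same genome and share its mappability and base composition, so no p is given. The median distance between the summits of a pair of lists was 15 to 28 bp, and 80.7 to 90.3% of regions had them within 100 bp. Between the outermost of the 4 summits the median distance was 47 bp with quartiles at 25 and 125 bp, and 229 regions (71.3%) stayed within 100 bp. The largest spread was 637 bp, and the width limit of the rule bounds it.

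**Figure D4:**
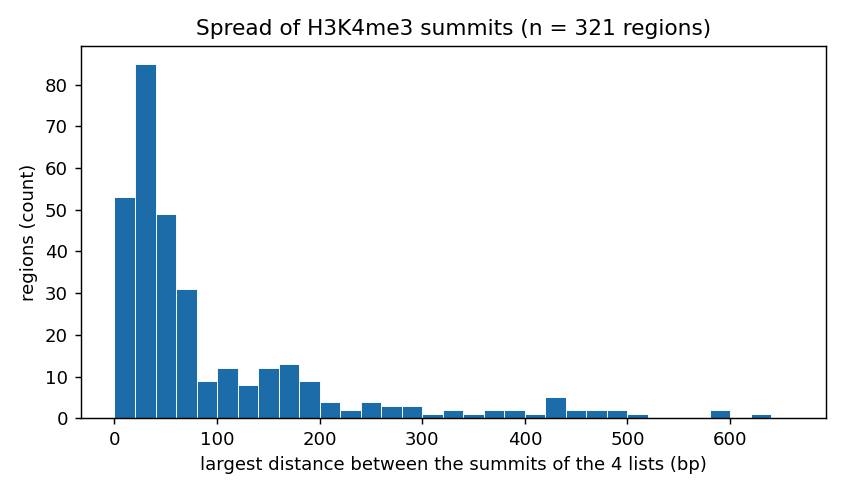
Number of narrow regions by the distance in bp between the outermost H3K4me3 summits of palms 765, 753, 758 and 768, in bins of 20 bp, for the 321 regions with a peak in all 4 lists. Most regions lie at the left, with a median of 47 bp, and a thin tail reaches 637 bp.

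Both marks were called in palm 765 at 205 narrow regions, of 345 with H3K4me3 and 213 with H3K27me3. At these 205 regions the median fold enrichment was 8.72 for H3K4me3 and 2.32 for H3K27me3, and it was higher for H3K4me3 at 203. The median ChIP coverage was 24.8 for H3K4me3 and 34.5 for H3K27me3, as multiples of each library's average. The median local background was 2.35 in the H3K4me3 call and 14.0 in the H3K27me3 call, and it was lower in the H3K4me3 call at 203 regions. In palm 765 coverage did not order the marks as enrichment did. The caller takes values at the summit of an H3K4me3 peak and averages them over an H3K27me3 peak, which bears on this comparison. In normal palm 767 both marks were called at 60 narrow regions, of 102 with H3K4me3 and 185 with H3K27me3. The median fold enrichment there was 4.32 for H3K4me3 and 2.34 for H3K27me3, the median coverage 57.4 and 32.4, and the median background 8.11 and 14.7, each with H3K4me3 first, so that in palm 767 coverage and enrichment ordered the marks alike. Coverage was also higher for H3K4me3 at the 3 shared regions of palm 687, at 55.2 against 22.2 for H3K27me3, and at the 6 of palm 770, at 37.4 against 21.0. The same held at the 3 of normal palm 764, at 134 against 103. Coverage was lower for H3K4me3 at the 14 shared regions of normal palm 768, at 15.4 against 23.9, where the enrichment was 5.23 against 4.71. It was also lower at the 3 of normal palm 758, at 8.30 against 10.1, and at the 1 of normal palm 753, at 24.4 against 36.7. The order in palm 765 was thus also found in palm 768. Palm 754 had H3K4me3 at 6 and H3K27me3 at 66 narrow regions, and shared none of them.

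Background at the narrow regions was modest for most and high for a few. The median over a region's H3K4me3 lists had a median of 6.73 over the 366 regions, quartiles of 3.74 and 12.9, and a range of 1.03 to 202. It was under 2 at 38 regions, over 10 at 126 and over 50 at 28. At the 12 regions in 5 lists, the medians per normal list were 42.0 to 81.6, and at the 273 regions in 3 lists they were 3.56 to 38.5. In palm 765, whose list the count of normal lists does not use, the median was 16.7 at those 12 regions, 3.32 at the 81 regions in 4 lists and 2.0 at those 273. The other mantled lists did not all follow this order, as palm 770 had 17.4 at 9 regions in 3 lists and 14.2 at 8 regions in 4, and palm 754 had 49.1 at 5 and 1.01 at 1.

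The narrow regions were then set against the 290 regions with both marks, in mantled lists only. In H3K4me3 lists the median local background at narrow regions and at regions with both marks was 1.78 and 78.7 in palm 687, 25.0 and 81.0 in palm 754, 2.30 and 53.4 in palm 765, and 17.4 and 85.9 in palm 770. In H3K27me3 lists it was 15.3 and 90.9 in palm 673, 1.05 and 129 in palm 687, 18.9 and 83.4 in palm 754, 13.8 and 89.4 in palm 765, and 4.34 and 76.5 in palm 770. Narrow regions had the lower background in 4 of 4 and in 5 of 5 lists. Wide regions had a background like that of narrow ones in the lists with many peaks at both, at 2.84 in the H3K4me3 list of palm 765 and at 13.0, 22.4 and 13.4 in the H3K27me3 lists of palms 673, 754 and 765, so the low background is not particular to narrow regions. The mean difference in log2 background was -3.50 for H3K4me3 and -3.70 for H3K27me3. Palms 687, 754 and 770 contributed 6 to 24 peaks at narrow regions in 5 of these lists, with the H3K27me3 list of palm 754 at 66. When only peaks enriched at least 3-fold were kept, the difference in H3K4me3 lists was 1.04 and so went the other way, and that in H3K27me3 lists was -0.24. A list entered these means only with at least 3 peaks in each set, and at this cut not every list of either mark did. The cut also acts on the background, which is computed from the enrichment.

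Narrow regions were also set against the wide regions, although the merged width was itself set in part by mantled calls. The widest single peak of a narrow region came from the H3K4me3 list of mantled palm 765 at 294 of 366 (80.3%). At wide regions the widest peak came from that list at 196 (62.8%), and from the H3K27me3 lists of mantled palms 673 and 765 at 53 (17.0%) and 27 (8.65%). Those H3K27me3 lists held it at 4 and 6 narrow regions. The comparison of narrow with wide regions in mantled lists of either mark is a description for that reason. H3K4me3 was called at 2.46% of narrow and 0.641% of wide regions in palm 687, 1.64 and 2.56% in palm 754, 94.3 and 99.7% in palm 765, and 5.19 and 1.92% in palm 770. H3K27me3 was called at 41.3 and 72.8% in palm 673, 1.91 and 0.321% in palm 687, 18.0 and 30.8% in palm 754, 58.2 and 72.8% in palm 765, and 6.56 and 1.60% in palm 770. The 3 H3K27me3 lists that covered many regions covered fewer narrow than wide ones, and the mean difference was -10.4 percentage points over 5 lists, but 5.60 when only peaks enriched at least 3-fold were kept. For H3K4me3 the mean difference was -0.31 percentage points over 4 lists.

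When the extent of each region was taken from the 10 normal lists alone, 536 regions were narrow and 155 wide. All 366 narrow regions and 151 of the 312 wide regions overlapped these 536. In those regions H3K27me3 was called at 50.6% of narrow and 77.4% of wide regions in palm 673, at 20.3 and 33.5% in palm 754, and at 61.2 and 76.1% in palm 765. It was called at 1.31 and 0% in palm 687, where 0 of 155 allows up to 1.94%, and at 5.41 and 0.645% in palm 770. The mean difference was -9.79 percentage points over the 5 lists for H3K27me3 and 0.19 over the 4 lists for H3K4me3. This choice was made after the values had been seen.

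Among single regions, the narrow regions on p5.00_sc00438_p0004 from 851 to 1355 and on p5.00_sc00438_p0003 from 26576 to 27079 were the 2 with H3K4me3 in 3 mantled lists. The region on p5.00_sc00438_p0004 had fold enrichments of 3.38, 14.2 and 2.79 in mantled palms 687, 765 and 770, against 3.57, 3.68, 4.76 and 5.08 in normal palms 753, 758, 767 and 768. The region on p5.00_sc00438_p0003 had 3.26, 15.9 and 2.89 in mantled palms 687, 765 and 770, against 4.82, 3.21, 3.53 and 4.53 in the same normal palms. In both, palm 765 stood far above the other lists, while the other mantled values lay near or below the lowest normal ones. H3K27me3 at these regions was called in mantled palms 754, 765 and 770, at 2.78, 2.55 and 2.63 on p5.00_sc00438_p0004 and at 2.71, 2.55 and 3.10 on p5.00_sc00438_p0003, which also had 1.55 in palm 673. Normal palm 767 had H3K27me3 at 3.14 and 3.00.

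The region on p5.00_sc01537_p0001 from 297 to 863 had H3K4me3 in all 5 normal lists. Its fold enrichment was 3.68 and 18.2 in mantled palms 687 and 765, against 3.62, 2.88, 1.95, 4.91 and 4.23 in normal palms 753, 758, 764, 767 and 768. Its background was 1.66 in palm 765, against 13.0 in palm 687 and 6.65 to 14.3 in the normal lists. The region on p5.00_sc01537_p0002 from 13517 to 14081 had 16.6 in mantled palm 765 alone of the mantled H3K4me3 lists, against 3.47, 2.72, 2.09, 6.18 and 4.96 in the 5 normal lists in the same order. It also had H3K27me3 in 4 mantled lists, at 1.43, 2.19, 2.91 and 2.11 in palms 673, 754, 765 and 770.

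The other regions in all 5 normal lists that were named had high backgrounds. That on p5.00_sc00195_p0004 from 15 to 398 had the highest background of all narrow regions, at 86.2 and 264 times the average in mantled palms 765 and 770, against 173 to 231 times in the 5 normal lists. Its fold enrichment was 5.56 and 2.07 in mantled palms 765 and 770, against 2.35, 1.95, 2.28, 2.89 and 2.79 in normal palms 753, 758, 764, 767 and 768. H3K27me3 was called there at 1.49 to 2.22 in 4 mantled lists, on a background of 170 to 271. The region on p5.00_sc00075_p0038 from 35289 to 35786 had 2.80 and 1.70 in mantled palms 765 and 770, against 1.79, 1.62, 1.66, 3.06 and 1.85 in the 5 normal palms, on backgrounds of 41.0 to 74.5. Both regions thus carried peaks in many lists at low enrichment over a background far above the median narrow region.

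Low backgrounds were found at 2 named regions that palm 765 did not mark with H3K4me3. On p5.00_sc00029_p0090 from 5900 to 6226 the fold enrichment was 21.7 and 4.98 in mantled palms 687 and 770, against 4.71, 6.39, 4.85 and 6.37 in normal palms 753, 758, 767 and 768, on backgrounds of 1.01 to 2.33. H3K27me3 was called there at 5.71 in mantled palm 770 and at 6.64 in normal palm 768. On p5.00_sc01965_p0001 from 2476 to 2844 H3K4me3 had 12.7 in mantled palm 687, against 6.07, 5.25 and 3.77 in normal palms 753, 758 and 764. H3K27me3 was called there at 5.25, 4.02, 3.78 and 6.44 in mantled palms 687, 754, 765 and 770, against 6.31 in normal palm 768, on backgrounds of 1.01 to 1.5. The enrichments of the marks lay close together at these 2 regions in the lists other than that of palm 687.

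At the remaining named regions palm 765 lay above the normal lists in some and within their range in others. On p5.00_sc01329_p0001 from 986 to 1463 H3K4me3 had 14.6 and 3.88 in mantled palms 765 and 770, against 4.17, 2.95, 7.99 and 6.82 in normal palms 753, 758, 767 and 768. On p5.00_sc00027_p0052 from 20779 to 21129 it had 5.07 and 3.33 in mantled palms 765 and 770, against 4.38, 3.32, 7.17 and 6.35 in the same normal palms, so that palm 765 lay inside the normal range. On p5.00_sc00123_p0010 from 10353 to 11074 it had 11.0 and 3.54 in mantled palms 765 and 770, against 2.75, 3.95 and 6.61 in normal palms 753, 758 and 768.

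Palm 754 gave an H3K4me3 peak at 1 named region, p5.00_sc00075_p0131 from 5503 to 5913. Its fold enrichment was 2.03 and 3.14 in mantled palms 754 and 765, against 1.80, 1.85 and 1.96 in normal palms 753, 758 and 764, and its backgrounds were 68.3 to 123. It had no H3K27me3 peak in any list. The region on p5.00_sc02278_p0001 from 16 to 720 had 3.05 in mantled palm 765, against 1.64, 1.48, 1.70 and 1.91 in normal palms 753, 758, 764 and 768, and H3K27me3 at 1.35 to 1.75 in 4 mantled lists, all on backgrounds of 41.1 to 79.1.

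**Figure D5:**
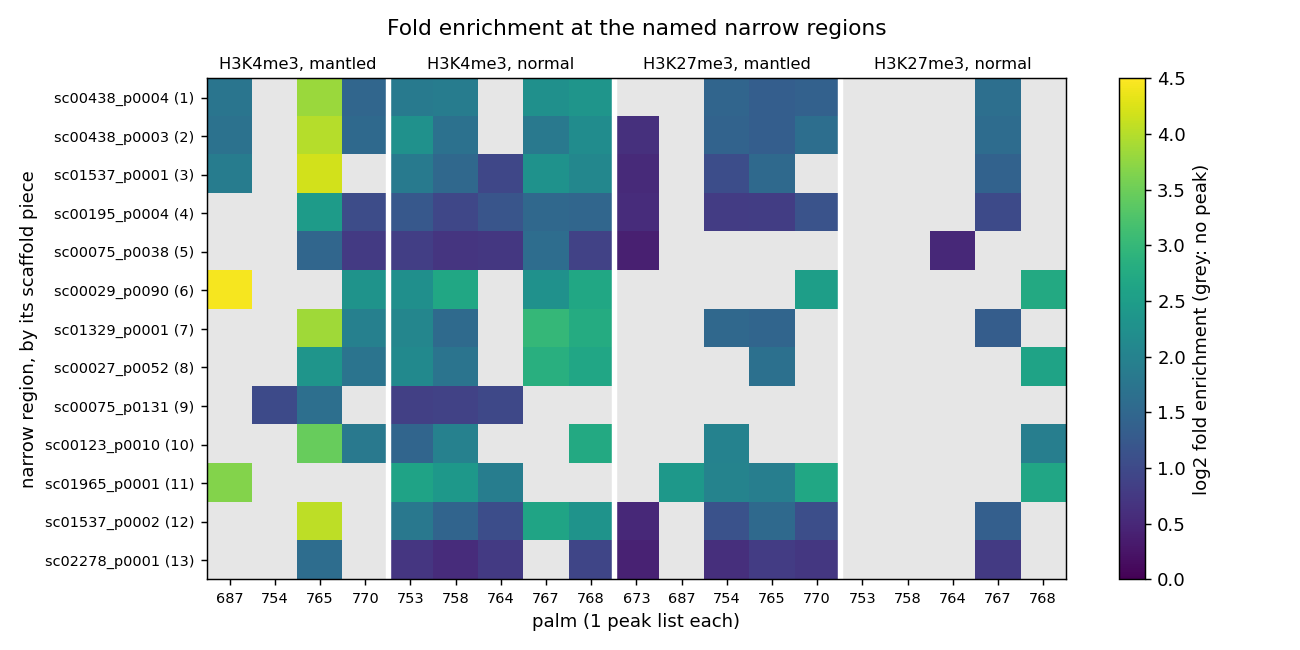
Log2 of the authors' fold enrichment at 13 named narrow regions in the 19 lists, with mantled before normal palms for each mark and grey where a list had no peak. The column of the H3K4me3 list of palm 765 is the brightest in most regions, whereas most cells of the normal H3K27me3 lists are grey.

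Regions on either side of the limits of the rule had the following values. The 273 narrow regions in 3 normal H3K4me3 lists had a median width of 589 bp and a median fold enrichment of 2.79 in normal H3K4me3 lists, and the 393 regions that missed the set with 2 such lists had 476 bp and 2.52. The 216 regions with 1 normal H3K27me3 list had a median enrichment of 2.88, and the 138 that missed the set with 2 such lists had 3.60. The widest narrow regions measured 999 bp (p5.00_sc00006_p0146 from 6160 to 7158), 994 bp (p5.00_sc00795_p0001 from 102 to 1095) and 990 bp (p5.00_sc00726_p0002 from 9591 to 10580). In them H3K4me3 of palm 765 had 13.6, 7.19 and 16.1, against 1.39 to 5.22 in the normal lists. The narrowest wide regions measured 1003 bp (p5.00_sc00289_p0007 from 2 to 1004), 1003 bp (p5.00_sc02926_p0001 from 13245 to 14247) and 1004 bp (p5.00_sc01442_p0001 from 96 to 1099). Each of these 3 had H3K4me3 in 4 normal lists and 1 mantled list.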

How the data were processed

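The analysis used the 19 peak lists, 1 for each immunoprecipitated library. Per the file headers, the authors called them with MACS2 on paired-end fragments, each library against its own input, with the genome size set to 221 Mb, the q cutoff set to 0.05 and duplicates reduced to 1 fragment per position. The headers also show the caller's narrow mode for H3K4me3 and its broad mode for H3K27me3, so values of the marks are not alike in kind. The versions in the submitters' processing notes are MACS2 2.1.1.20160309, SAMtools 1.9, Bowtie2 2.2.5 and FastQC 0.11.3. The authors deposited the pileup, a signal of stacked fragments, the fold enrichment, a ratio to local background, and p and q as −log10 values. Apart from the names of scaffold pieces, the build is not given in the sources used here. The gene table at hand is of assembly EG11 and names other sequences, so genes, exons and sequences were not used here.

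Peaks were merged and counted with Python 3.11.15, pandas 2.3.3, numpy 2.4.6 and scipy 1.17.1, and positions count from 1. A region's value in a list is that of its strongest peak. Local background was (pileup + 1) / fold enrichment − 1, divided by the average pileup that the header's fragments, fragment length and genome size imply. It compares peaks and is no copy number. Wilson intervals and depths cover counting error only. Fisher's exact test was run on all 5888 regions, with a threshold of 0.05 after adjustment. The procedures were tested on simulated data. Palms are separate plants and were the replicates, and lists of the same palm are paired by the labels. The members, the lists compared and the alternatives were chosen with earlier results of these data known, so shares and medians over the narrow regions carry no p-values.

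The regions named are the 8 with H3K4me3 in most lists, ordered within ties by median enrichment in normal lists. They also include the 6 with H3K4me3 in most mantled lists, ordered by fewest mantled H3K27me3 lists and then by enrichment, and the 5 with H3K27me3 in most mantled lists. To these come the 3 widest regions, the 3 just over the width limit and the 3 pieces with most narrow regions, and a region in several of these choices is named once.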

Additional observations from a re-analysis of the deposited data

Results flagged for a closer look

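Groups of 4 or 5 lists were searched for a list whose gap to its nearest neighbour took up most of the group's range, by Dixon's 95% criterion. Of 35 groups searched 4 had such a list. Chance gives about 1 in 20 groups, a rate that does not apply to the 3 found in normal lists, since the rule chose the regions on those lists. The share of narrow regions with a peak in mantled H3K4me3 lists was 94.3% in palm 765, with the other 3 lists at 1.64 to 5.19%. In normal H3K27me3 lists the share was 50.5% in palm 767, with the other 4 at 0.273 to 5.19%. The median local background at narrow regions in normal H3K4me3 lists was 50.3 in palm 764, with the other 4 at 5.81 to 12.3. These medians are over different regions, as palm 764 had a peak at 36 and the others at 102 to 364. At the 12 regions with a peak in all 5 lists palm 764 had 67.1, inside the range of 42.0 to 81.6 of the other lists. The fold enrichment of normal H3K4me3 lists on p5.00_sc00075_p0038 from 35289 to 35786 was 3.06 in palm 767, with the other 4 at 1.62 to 1.85.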

How the results depend on the processing

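The number of narrow regions depended on the rule: it was 366 as reported, 124 when only peaks enriched at least 3-fold were kept, 93 with 4 normal H3K4me3 lists required, 150 with no normal H3K27me3 list allowed, and 97 to 470 with 1 normal palm left out. The difference between marks in the share of narrow regions marked in mantled lists, 0.70 percentage points, was -2.5 with a width limit of 1500 bp, -7.47 with 4 normal H3K4me3 lists, -1.92 with regions merged from the normal lists alone, and -13.8 to 6.99 with 1 palm left out. It was 19.0 when only peaks enriched at least 3-fold were kept and 5.91 with only peaks of a −log10 q of at least 5. With no normal H3K27me3 list allowed it was 12.1. Paired within palms, as a replicate block, it was 4.71. The difference between narrow and wide regions in mantled H3K4me3 lists, -0.31, was 1.24 with 4 normal lists, 0.19 with the normal lists alone and -1.60 to 1.42 with 1 palm left out. In mantled H3K27me3 lists it was -10.4, against 5.60 at an enrichment of at least 3 and -14.3 to -5.19 with 1 palm left out. The log2 background difference from regions with both marks in H3K4me3 lists, -3.50, was 1.04 at an enrichment of at least 3 and -5.09 to -2.84 with 1 palm left out. In H3K27me3 lists it was -3.70 and kept its sign in all 18 alternatives, from -4.09 to -0.24. The median log2 enrichment of narrow minus wide regions in mantled H3K4me3 lists was 0.35, and -0.045 at an enrichment of at least 3. It was -0.089 with no normal H3K27me3 list, -0.23 with the normal lists alone and -0.0090 to 0.98 with 1 palm left out. A list entered only with at least 3 peaks in each set. The 0.35 thus rests on palms 754, 765 and 770, as palm 687 had 2 peaks at wide regions. At narrow and wide regions palm 754 had 6 and 8 peaks, and palm 770 had 19 and 6. The values of -0.089 and -0.23 rest on 1 list each. Fisher's exact test called 0 narrow regions throughout, and after adjustment the small number of lists limits this count. The causes were not tested. Lists of few fragments limit all shares, as a missing peak there does not show a missing mark.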

Other observations

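Narrow regions also occurred on scaffold pieces with consecutive numbers. There were 13 such pairs of narrow regions, and in 2 of them the widths differed by no more than 10 bp. The regions on p5.00_sc00438_p0003 from 26576 to 27079 and on p5.00_sc00438_p0004 from 851 to 1355 were 504 and 505 bp wide, and of the 12 lists with a peak in either, 11 had it in both. Those on p5.00_sc01537_p0001 from 297 to 863 and on p5.00_sc01537_p0002 from 13517 to 14081 were 567 and 565 bp wide, and of 12 such lists 10 had it in both. In the other 11 pairs the widths differed by 12 to 388 bp, and 4 to 6 lists had a peak in both, of 6 to 11 with a peak in either. Among these, the regions on p5.00_sc00104_p0067 and p5.00_sc00104_p0068, 610 and 592 bp wide, shared 6 of 7 lists. A high share of common lists was thus not limited to the pairs of like width. These pairs were looked up after the values had been seen, and whether their pieces overlap in sequence was not tested.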
